A study of Mus musculus with 4 samples.

Results

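Processed pseudogenes made up 187 of the 1132 gene symbols (16.5%) that the authors listed as lower or higher in mouse embryonic stem cells in which the nuclear long non-coding RNA Mrhl was targeted with an shRNA. A symbol was taken as a member when the deposited tables gave its gene type as processed_pseudogene (172 symbols) or transcribed_processed_pseudogene (15 symbols). The cells were E14tg2a, an established embryonic stem cell line of strain 129/Ola, grown on gelatine in serum medium. Both groups were transiently transfected for 48 hours with the TransIT-X2 reagent, the control group with a scrambled shRNA and the other with an shRNA against Mrhl named sh-Mrhl here, and 2 libraries were made per group from DNase-treated total RNA. A label field is called lentivirus, whereas the treatment protocol describes transfection, and nothing says whether the libraries of a group came from separate cultures. The tables give 1 signed value per gene for the comparison of sh-Mrhl with scrambled, below 0 for genes lower in sh-Mrhl, and no value per library. No replicate error, depth or test can therefore be attached to any value, and "lower" and "higher" mean only the table in which the authors put the gene.

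A processed pseudogene, or retrocopy, arises when the spliced mRNA of a parent gene is copied into DNA by the enzymes of LINE retrotransposons and inserted elsewhere in the genome. It therefore lacks the introns of its parent and usually the promoter as well. Genes with abundant mRNA in the germline and early embryo, such as those for ribosomal proteins and the glycolytic enzyme Gapdh, have left many copies in the mouse genome. Most copies have lost the reading frame with time, while young ones can remain nearly identical to the parent mRNA, so that a short read may match both.

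How closely copies of 1 parent resemble it and each other is shown by stretches of 90 bases of parent coding sequence beside the same stretch of copies that the authors listed in opposite directions. Capitals mark bases of a copy that differ from the parent. Sequences are from the GENCODE M21 transcripts on GRCm38, also called mm10, written 5′ to 3′ in the sense of the parent mRNA, with positions counted from 1 at the first base of the parent's coding sequence. For each parent the gap-free stretch with the most differing bases was taken, so these stretches are not typical of the whole copy. For Rpl31, a protein of the large ribosomal subunit (chr1:39367842-39371911, plus strand), the stretch covers bases 21 to 110. Rpl31-ps9 (chr1:129801387-129801764, minus strand), listed as higher, has 0 differing bases there, and Rpl31-ps13 (chr13:100415565-100415942, plus strand), listed as lower, has 5.
Rpl31: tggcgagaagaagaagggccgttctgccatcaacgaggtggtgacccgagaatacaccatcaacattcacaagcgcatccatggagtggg
Rpl31-ps9: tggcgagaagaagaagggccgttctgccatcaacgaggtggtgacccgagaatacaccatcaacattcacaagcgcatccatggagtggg
Rpl31-ps13: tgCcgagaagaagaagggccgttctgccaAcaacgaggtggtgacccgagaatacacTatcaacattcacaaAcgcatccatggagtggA

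Rpl15, another large-subunit protein (chr14:18267823-18271391, minus strand), is shown from base 128 to 217. Rpl15-ps3 (chr9:22185607-22186221, minus strand), listed as lower, was identical to the parent transcript over its whole length, and Rpl15-ps5 (chr7:97594837-97595441, minus strand), listed as higher, has 5 differing bases in the stretch.
Rpl15: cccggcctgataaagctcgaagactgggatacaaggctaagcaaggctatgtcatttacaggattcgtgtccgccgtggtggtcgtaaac
Rpl15-ps3: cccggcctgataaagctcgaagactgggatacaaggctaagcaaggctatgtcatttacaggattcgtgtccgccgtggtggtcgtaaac
Rpl15-ps5: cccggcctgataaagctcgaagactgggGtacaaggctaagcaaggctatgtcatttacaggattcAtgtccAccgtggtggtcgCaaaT

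Rps12, a small-subunit protein (chr10:23785183-23787275, minus strand), is shown from base 212 to 301, with 5 differing bases in Rps12-ps24 (chr8:36025753-36026133, plus strand), listed as lower, and 2 in Rps12-ps10 (chr2:122219993-122220391, plus strand), listed as higher.
Rps12: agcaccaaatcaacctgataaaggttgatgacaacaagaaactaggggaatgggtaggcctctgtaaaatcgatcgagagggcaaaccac
Rps12-ps24: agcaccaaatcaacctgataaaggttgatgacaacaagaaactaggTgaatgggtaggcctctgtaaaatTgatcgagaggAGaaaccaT
Rps12-ps10: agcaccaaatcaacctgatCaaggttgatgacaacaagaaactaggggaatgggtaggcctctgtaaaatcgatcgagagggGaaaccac

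Gapdh (chr6:125161715-125166467, minus strand) is shown from base 506 to 595 with its copies of the most negative and the most positive value. Gm11953 (chr11:3951714-3952716, plus strand) has 7 differing bases and Gm16470 (chr19:40212382-40213379, plus strand) has 5.
Gapdh: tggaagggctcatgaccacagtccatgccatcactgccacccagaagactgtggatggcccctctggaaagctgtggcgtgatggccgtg
Gm11953: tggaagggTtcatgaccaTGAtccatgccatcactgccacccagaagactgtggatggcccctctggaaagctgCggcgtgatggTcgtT
Gm16470: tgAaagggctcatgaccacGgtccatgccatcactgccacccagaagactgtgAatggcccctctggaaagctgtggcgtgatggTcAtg

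Crb1, a polarity protein of the retina (chr1:139197056-139377100, minus strand), is shown from base 431 to 520 because it is the parent that was itself listed. Its copy Crb1-ps (chr14:26375278-26376172, minus strand) has 12 differing bases in the stretch.
Crb1: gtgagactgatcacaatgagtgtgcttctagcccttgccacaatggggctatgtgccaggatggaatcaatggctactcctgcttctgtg
Crb1-ps: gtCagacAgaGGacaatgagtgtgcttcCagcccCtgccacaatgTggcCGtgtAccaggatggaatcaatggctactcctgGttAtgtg

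Dppa5a, an RNA-binding protein abundant in embryonic stem cells (chr9:78367052-78368177, minus strand), is shown from base 130 to 219 because it is the 1 parent among the stem cell genes. Its copy Gm11649 (chr11:107531931-107532305, minus strand) has 11 differing bases.
Dppa5a: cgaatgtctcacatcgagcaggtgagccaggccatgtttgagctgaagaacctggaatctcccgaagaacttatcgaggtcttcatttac
Gm11649: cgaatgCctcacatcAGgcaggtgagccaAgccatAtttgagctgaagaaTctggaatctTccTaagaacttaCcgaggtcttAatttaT

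Of the 187 members, 110 were listed as lower and 77 as higher. The lower share was 58.8% (exact 95% binomial interval 51.4 to 66.0%, for counting error only), beside 63.7% over all 1131 listed symbols with 1 direction and 64.7% over the 944 that are not processed pseudogenes. The interval holds both of these shares, but it treats members as independent, which copies of 1 parent need not be. It is not a test of the difference. GENCODE M21 placed 186 of the members, which are 1.82% of its 10237 processed pseudogenes, and 2.5% of its protein-coding symbols were listed. In the authors' deposited tables the lower members had a median of -1.89 and ranged from -3.98 to -1.52, and the higher members had a median of 1.94 and ranged from 1.51 to 2.87. The medians over all listed symbols were -1.91 and 1.94. An absolute value of at least 2 was reached by 39 lower members (35.5%, beside 44.4% of all lower symbols) and by 21 higher members (27.3%, beside 33.2% of all higher symbols). Both directions together, 40.3% of all listed symbols reached it. In bulk RNA such values cannot tell fewer cells of a type from less RNA per cell.

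**Figure D1:**
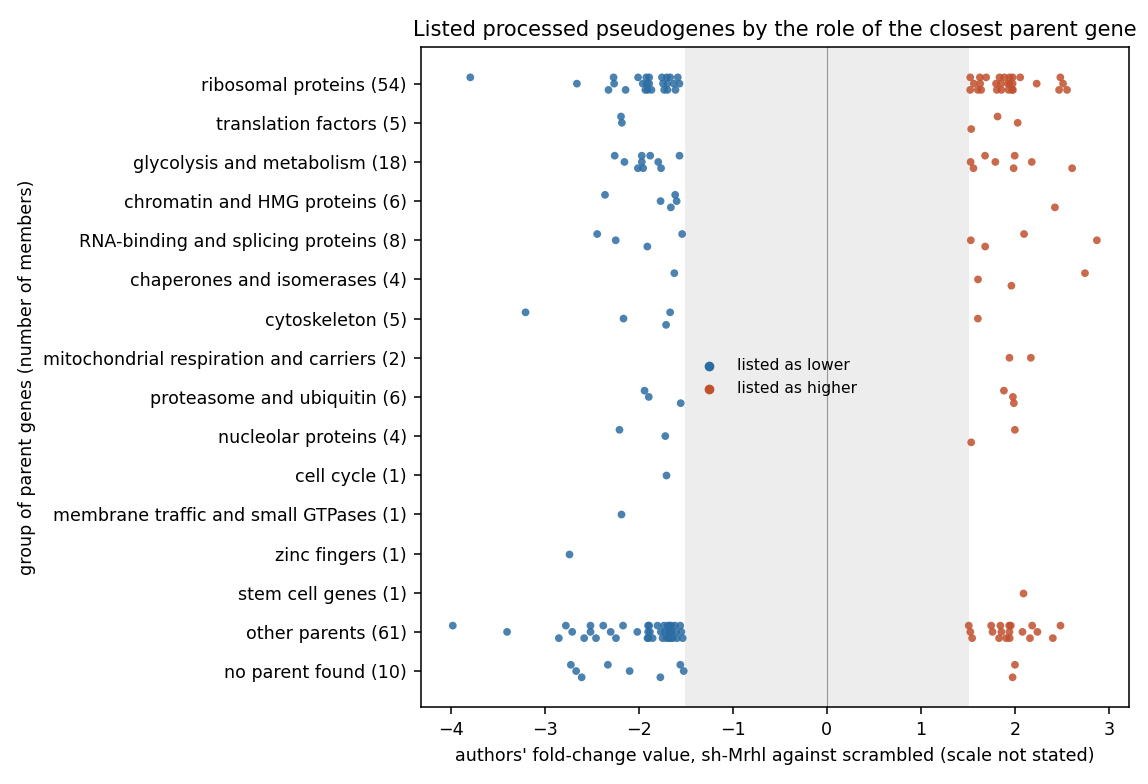
Deposited fold-change value of each listed processed pseudogene (horizontal axis, scale not stated) by the group of its parent gene (vertical axis, number of members in brackets), with 1 point per member, blue for lower and orange for higher. Ribosomal protein copies lie on both sides, 26 lower and 28 higher, and the grey band from -1.5 to 1.5 holds no listed gene.

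The most negative value among the members belonged to Gm16425, at -3.98 in the authors' deposited tables. It is a copy of Larp1, an RNA-binding protein that controls translation of ribosomal protein mRNAs, lies at chr8:19535454-19538583 on the plus strand and was 91.5% identical to its parent. Gm5451, a copy of the ribosomal protein gene Rpl9 with 98.6% identity, followed at -3.79 in the authors' deposited tables. Gm8093, of the transcribed type, stood at -3.40 in the authors' deposited tables. Its closest parent is BC037034, with 78.4% identity, and it overlaps an exon of Cgas, the sensor of cytosolic DNA. Gm11870, a copy of the alpha-tubulin gene Tuba1a, was at -3.20 in the authors' deposited tables and lies inside Osgin2. These 4 of the 110 lower members had an absolute value of at least 3, beside 46 of all 721 lower symbols. None of the 77 higher members reached it, beside 25 of all 410 higher symbols. The next were Gm21182 at -2.85, a copy of the kinase gene Pim2, and Bambi-ps1 at -2.77, a copy of the gene for Bambi, a decoy receptor that dampens BMP and TGF-beta signalling, in the authors' deposited tables. Gm7452, a copy of the zinc finger gene Zfp59, was at -2.75 and Gm11991, which had no parent by sequence, at -2.72 in the authors' deposited tables.

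On the higher side, Gm7446 had the most positive value, 2.87 in the authors' deposited tables, and is a copy of the splicing regulator gene Hnrnpf with 98.1% identity. It overlaps an exon of the gene model Gm47882. Gm8326, a copy of the constitutive chaperone gene Hspa8, was at 2.74 in the authors' deposited tables and lies at chr1:46414502-46416932 on the plus strand. The Gapdh copy Gm16470 was at 2.61 in the authors' deposited tables. Of the other 5, 4 are copies of ribosomal protein genes, with Gm5075 (Rpl13) at 2.55, Rps4x-ps at 2.51, Gm13436 (Rpl18) at 2.48 and Rpl31-ps9 at 2.47 in the authors' deposited tables. Gm12579, a copy of Fam220a, was at 2.48 in the authors' deposited tables.

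The symbol or the description named a parent for 25 members, 24 by the symbol and 1 (AC122821.1, Rpl37) by the description. Of these, 14 were listed as lower and 11 as higher. They name 22 distinct parents, and 1 of these, Crb1, was listed itself. Crb1 was at -2.32 and Crb1-ps at 1.52 in the authors' deposited tables, so parent and copy were in opposite tables. Crb1-ps lies on another chromosome than Crb1 and was 80.7% identical to it over the aligned part. Crb1-ps also lies inside the gene 4933413J09Rik, on the opposite strand, and overlaps an exon of it. Whether reads of that gene entered the value of Crb1-ps was not tested. The lower named copies beside Bambi-ps1 included Cdv3-ps at -2.71, Tcea1-ps1, from an elongation factor gene, at -2.02 and Rps12-ps24 at -2.01 in the authors' deposited tables. Bnip3l-ps, from a mitophagy receptor gene, was at -1.88, Mdm4-ps, from a regulator of p53, at -1.73 and Krt8-ps, from a simple-epithelium keratin gene, at -1.67 in the authors' deposited tables. The higher named copies included Rbx1-ps, from a ubiquitin ligase subunit gene, and Rpl3-ps2, both at 1.85 in the authors' deposited tables. Tubb4b-ps1, from a beta-tubulin gene, was at 1.60 and Npm3-ps1, from a nucleolar chaperone gene, at 1.53 in the authors' deposited tables.

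Parents were also assigned by sequence, as the spliced coding transcript that each pseudogene matched best. This gave a parent for 177 members and 130 distinct parents, and it was the named parent in 23 of 25 cases. The exceptions were Plk-ps1, matched to Plk1, and Eif5al3-ps, matched to Eif5a. Of the 130 parents 1 (0.769%), again Crb1, was listed, beside 2.5% of all protein-coding symbols. The parents of the other 176 members are absent from both tables, which does not show that they were unchanged, since the threshold behind the tables is not given in the sources used here. Of 85 ribosomal protein symbols 0 were listed, beside the 2.5% of all protein-coding symbols. Of their 2551 annotated copies 54 (2.12%) were listed, beside 1.82% of all annotated processed pseudogenes. Neither difference was tested. No parent was found for 10 members, 8 lower and 2 higher. Of these, the higher Gm44942 was not in GENCODE M21 and was never aligned.

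Copies of ribosomal protein genes were the most frequent named group, with 54 members from 31 parents. They were 28.9% of the members and 24.9% of all annotated processed pseudogenes. Of the 54, 26 were listed as lower, with a median of -1.89, and 28 as higher, with a median of 1.903, in the authors' deposited tables. Their lower share was thus below the 63.7% of all listed symbols, a difference that was not tested. Copies of glycolytic enzyme genes numbered 18, or 9.63% of members beside 4.99% of annotated processed pseudogenes, with 10 lower and 8 higher. All but Gm11218, a copy of the enolase gene Eno1b at -2.01 in the authors' deposited tables, came from Gapdh. Copies of genes for RNA-binding and splicing proteins were 4 lower and 4 higher, from Gm19144 (Hnrnpr) at -2.44 to Gm7446 in the authors' deposited tables. They were 8 of 286 annotated copies (2.80%), beside 1.82% of all annotated processed pseudogenes. The group of chromatin and HMG proteins had 5 lower and 1 higher, which were 6 of 424 annotated copies (1.42%), with Gm6104, a copy of Hmgb3, at -2.36 and Gm13160, a copy of Hmgb2, at 2.42 in the authors' deposited tables. That group took in Gm14026, a copy of the histidine methyltransferase gene Setd3, by the start of its parent's symbol alone.

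Smaller groups held few members each. Copies of cytoskeletal genes were 4 lower and 1 higher, of 186 annotated (2.69%), among them Gm8822, from the Arp2/3 subunit gene Actr3, at -2.16 in the authors' deposited tables. Copies of proteasome and ubiquitin genes were 3 lower and 3 higher, of 212 annotated (2.83%). Copies of translation factor genes were 2 lower and 3 higher, of 176 annotated (2.84%), and copies of nucleolar protein genes were 2 lower and 2 higher, of 54 annotated (7.41%). In these groups the authors' deposited tables gave -1.94 for Gm9762, from the ubiquitin-conjugating enzyme gene Ube2d2a, 2.03 for Gm5576, from the exon junction helicase gene Eif4a3, and -2.20 for Gm1947, from Nop56. Copies of chaperone genes were 1 lower and 3 higher, of 260 annotated (1.54%). Of 315 annotated copies of mitochondrial respiration and carrier genes, 2 (0.635%) were listed, Gm13171 (Ndufb7) at 1.94 and Gm4045 (Atp5l) at 2.17 in the authors' deposited tables. The stem cell group had 1 member, the Dppa5a copy Gm11649, at 2.09 in the authors' deposited tables. Gm11649 lies inside the gene A830035A12Rik, on the same strand, and overlaps an exon of it. Whether reads of A830035A12Rik entered the value of Gm11649 was not tested. Gm12856, from the mitotic cyclin gene Ccnb1, was at -1.71 and Gm18737, from Vps72, at -2.18 in the authors' deposited tables. The group meant for ferritin and metallothionein genes took every parent symbol that starts with Fth, Ftl or Mt. None of its 55 annotated copies was listed. The remaining 61 members came from 60 other parents and were 42 lower and 19 higher.

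Members that share a parent were compared with each other. Among the 20 parents with at least 2 listed copies, which account for 67 members, 14 had copies in both tables, 2 had lower copies only and 4 had higher copies only. With 63.7% of all listed symbols lower, copies of 1 parent can fall into both tables without any relation between them. Gapdh had 17 listed copies of 400 annotated (4.25%), 9 lower and 8 higher, from -2.26 for Gm11953 to 2.61 for Gm16470 in the authors' deposited tables. Their identity to Gapdh ran from 68.9 to 99.9%. Rps2 had 5 lower and 2 higher copies, from Gm6266 at -2.66 to Gm12091 at 2.05, and Rpl17 had 3 lower and 2 higher, from AA413626 at -2.27 to Gm16259 at 1.94, in the authors' deposited tables. The lower Rps2 copies Gm17968 and Gm27038, and the Rpl17 copy Gm16259, each overlap an exon of another gene. None of these copies had a 100-base stretch absent from all other annotated transcripts on both strands.

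The pairs printed above were among those split between the tables. In the authors' deposited tables, Rpl31-ps13 was at -1.67 and Rpl31-ps9 at 2.47. Rpl15-ps3 was at -1.92 and Rpl15-ps5 at 1.69, and Rps12-ps24 was at -2.01 and Rps12-ps10 at 1.52, in the authors' deposited tables. As Rpl15-ps3 is identical to the Rpl15 transcript over its whole length, its value cannot be told apart from that of Rpl15 by sequence. Other split pairs were the Fam220a copies Gm16410 at -1.901 and Gm12579 at 2.48, and the copies of the nucleophosmin gene Npm1, Gm15484 at -1.72 and Gm5611 at 1.998, in the authors' deposited tables. The parents with copies on the lower side only were Eef1a1, the elongation factor that brings tRNA to the ribosome, with Gm5822 at -2.19 and Gm19045 at -2.18, and Hmgb1, with Gm7890 at -1.66 and Gm5842 at -1.61, in the authors' deposited tables. The parents with copies on the higher side only included Hnrnpa3, with 3 copies from 1.53 to 2.09, Hspa8, with Gm5575 at 1.96 and Gm8326 at 2.74, and Rpl21, with Gm5857 at 1.93 and Gm13653 at 2.23, in the authors' deposited tables.

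**Figure D2:**
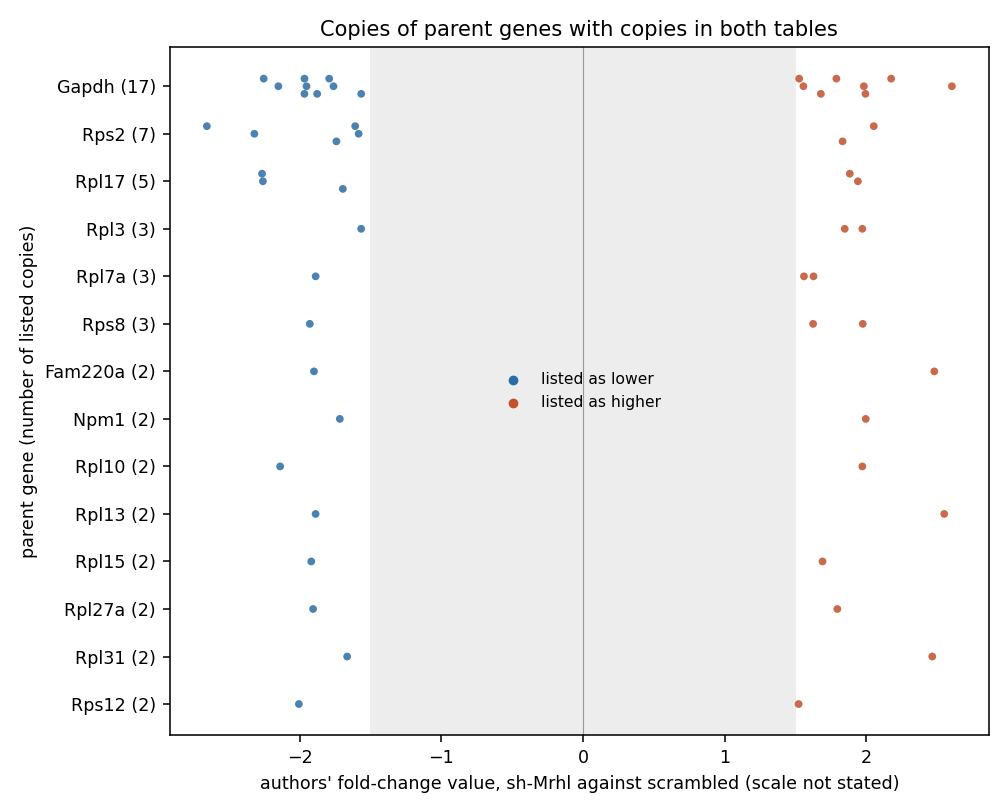
Deposited fold-change value of every listed copy (horizontal axis, scale not stated) for the 14 parents with listed copies in both tables (vertical axis, number of copies in brackets), blue for lower and orange for higher. Copies of Gapdh run from -2.26 to 2.61, and each parent has points on both sides of the grey band by the way the 14 were chosen.

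Identity to the parent was compared, without a test, between listed and unlisted processed pseudogenes. The median identity to the parent transcript was 95.6% (quartiles 91.1 and 98.3%) over the 177 members with a parent, and 88.3% (quartiles 80.4 and 94.3%) over 9389 unlisted processed pseudogenes. An identity of at least 95% was found for 95 members (53.7%) and for 22.4% of the unlisted ones, and an identity of at least 99% for 30 members (16.9%) and for 5.46%. Lower members had a median of 94.8% and higher members of 96.2%. Gm9762 (Ube2d2a), Rpl15-ps3, Apoo-ps, Gm12397 (Kdm2b) and Gm13502 (Idi1) were identical to the parent transcript over their full length, as were 99 of the 9389 unlisted ones. All 5 were listed as lower, beside 58.8% of all members. The median annotated length was 791.5 bases for members and 534 for unlisted ones. Expression levels were not used here, so how far the listed copies differ from the unlisted ones in read number was not tested.

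**Figure D3:**
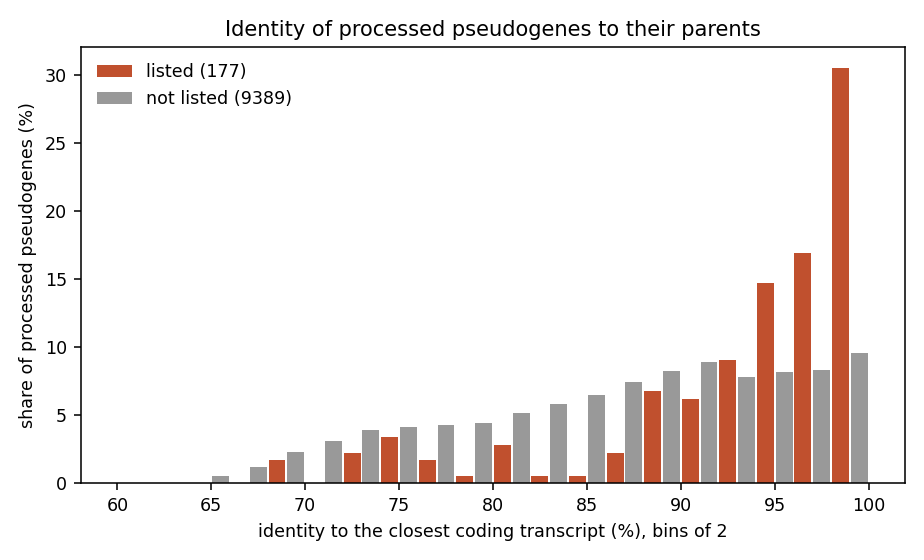
Identity to the closest coding transcript in bins of 2 percentage points (horizontal axis) against the share of processed pseudogenes (vertical axis, percent), for 177 listed (orange) and 9389 unlisted (grey) ones. Of the listed ones, 53.7% lie at 95% or above, beside 22.4% of the unlisted ones.

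The reading frame was followed from the parent's start codon. Codons were counted up to the first stop, without checking that they stayed in the parent's frame. From the parent's start codon, 48 of 175 members (27.4%) kept an open frame of at least 90% of the parent's codons, beside 10.04% of 9282 unlisted processed pseudogenes. The share was 21% among lower members and 36% among higher ones. The lower members were also longer, with a median of 890 bases beside 615.5 for the higher ones. Whether length accounts for the difference was not tested. Among the members with such a frame were the Gapdh copies Gm5559, Gm10284, Gm10327 and Gm3272, all listed as higher. The start codon was lost or outside the alignment in 63 members (36%), beside 61.5% of the unlisted ones, and Gm16425 and Bambi-ps1 were among them.

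How far a member's sequence is its own bears on what its value measures, since reads from the parent or another copy may be counted to it, or the reverse. How the authors treated reads that match several places is not given in the sources used here. The share of windows of 100 bases found in no other annotated transcript, on either strand, had a median of 86.7% over members and 100% over unlisted processed pseudogenes. With windows of 50 bases the medians were 56.6 and 96.9%. All 100-base windows were specific in 49 of 186 members, among them Gm11870 and Bambi-ps1, and in 6786 of 10014 unlisted processed pseudogenes. In 13 members (6.99%), 9 lower and 4 higher, none was specific, beside 3.98% of the unlisted ones. These were the 5 copies identical to their parents and 8 that overlap an exon of another gene, such as Gm10169, a copy of the cytokine gene Mif at 2.40 in the authors' deposited tables. The value of each of these 13 cannot be told apart from that of the other gene by sequence alone when strand is ignored. The 8 lie on the opposite strand to the gene they overlap, so reads counted by strand could separate them. The 5 identical copies match their parents in the same sense and could not be separated that way. The Gapdh copies ranged from 2.92% specific windows in Gm3272 to 100% in Gm12403. Among the 8 lowest and 8 highest members, the share was smallest in Gm21182 (15.3%) and Gm7446 (16.9%).

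**Figure D4:**
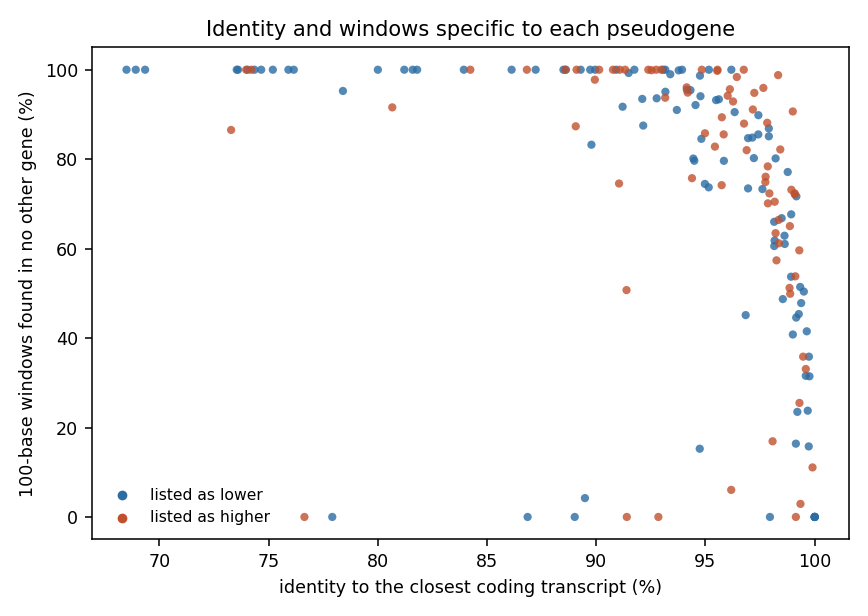
Identity to the closest coding transcript (horizontal axis, percent) against the share of 100-base windows found in no other annotated gene (vertical axis, percent) for the 177 members with a parent, blue for lower and orange for higher. Members listed as lower and as higher are intermixed, and those at 0 include the 5 copies identical to their parents.

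The position of members in other genes was also set beside that of unlisted processed pseudogenes, without a test. Of the 186 placed members, 84 (45.2%) were inside another annotated gene, beside 27.8% of 10051 unlisted ones, and 71 of the 84 touched introns only. The gene around the member was on the opposite strand for 62 members (33.3%, beside 17.8%) and on the same strand for 24 (12.9%, beside 11.1%), with some members inside genes of both strands. Rpl31-ps9 inside Thsd7b and Tubb4b-ps1 inside Zfp804b are examples. Gm16167, a copy of Kctd7 singled out after its value was seen, lies inside Phkb, the gene that also hosts Mrhl, at chr8:85853373-85854437 on the minus strand, opposite to Phkb. It overlaps no Phkb exon and was at -1.91 in the authors' deposited tables. Whether the authors counted reads by strand is not given in the sources used here, so reads of the surrounding gene may have entered these values. The lower share was 56.0% inside genes and 61.8% outside. An exon of another gene was overlapped by 19 members (10.2%, beside 4.30%), 9 lower and 10 higher.

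The gene overlapped was itself listed for 1 member. A930017M01Rik, of the transcribed type, was at -2.67 in the authors' deposited tables, and Sybu, a kinesin adaptor gene on the opposite strand, was at 1.95 in the same tables.

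The 15 members of the transcribed type, for which the annotation records transcription of the locus, were 10 lower and 5 higher. Their values ran from -3.40 for Gm8093 to 2.09 for Gm11649 in the authors' deposited tables. Their median length was 2203 bases, beside 710 for the other members, and 8 had more than 1 exon block. A parent was found for 10 of them, among them Gm5069, a Gapdh copy at 1.79, and Gm5422, a copy of the proteasome gene Psmd2 at 1.88, in the authors' deposited tables. The other 5, A930017M01Rik, 4933427G23Rik, Gm15760, B230303A05Rik and Gm17137, had matches that covered too little of their length and were all listed as lower. Of the 15, 7 overlapped an exon of another gene.

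Checks of the samples were limited by the tables. Mrhl and its host gene Phkb were not among the listed symbols, unlike the member Gm16167 inside Phkb, so the targeted RNA could not be examined. Of the defining markers, 0 of 12 embryonic stem cell genes, 0 of 4 primitive endoderm genes, 1 of 7 fibroblast genes (Col3a1) and 1 of 4 trophoblast genes (Hand1) were listed. The cell type label could not be checked, because the tables hold no expression levels.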

How the data were processed

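Libraries of total RNA from 2 scrambled and 2 sh-Mrhl samples were sequenced. Per the submitters' processing notes, TopHat2, Cuffdiff and mm10 were used. For software versions, annotation, statistical test, threshold, strandedness and multiply matching reads, the sources used here give nothing. The values are the authors' deposited signed fold changes, handled as a score because the deposited headers do not say whether the scale is log2 or linear, and none was converted. No absolute value lay below 1.5. The depth is unknown, so no count test could be run.

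Members and lists were chosen with earlier results of these data known. Members were placed by symbol in GENCODE M21. All annotated processed pseudogenes were aligned to coding transcripts of at least 2 exons with BLAST+ 2.17.0 (blastn, e-value 1e-05, at most 100 targets), in the same sense and outside their own locus. The transcript with the best summed score was the parent if at least 50% of the pseudogene aligned, some of it in coding sequence. The assignment was tried on 200 simulated retrocopies of 2, 5, 10 or 20% divergence, and 100% of the parents were recovered at each. Members ran down to 68.5% identity, which is more diverged than any simulated copy. The recovery therefore does not cover such members and gives no error rate for the real assignments. Windows of 50 and 100 bases were compared between annotated transcripts only, not with the genome. Genes named in the text were the 8 lowest and 8 highest members, those sharing a parent, those with a listed parent or overlapping gene, the transcribed type, and up to 4 examples per group. Other genes were named after their values were seen, and 1 parent gene is not reported here. Comparisons with unlisted pseudogenes are descriptions without a test. The work used biopython 1.88, pandas 2.3.3, scipy 1.17.1, matplotlib 3.10.9 and numpy 2.4.6 under Python 3.11.15.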

Additional observations from a re-analysis of the deposited data

How the results depend on the processing

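The lower share of members, 58.8%, was 65% with absolute values of at least 2, 58.1% without the transcribed type, 58.8% with gene types from GENCODE M21 or with every row counted, and 56% with named parents only. With alternatives chosen after seeing the data it was 63.8% without values from 1.9 to under 2, 58.0% without members lacking a specific 100-base window, and 60.5% without members overlapping an exon of another gene. The count of members with a listed parent stayed at 1 by symbol alone and by sequence, and was 4 of 25 when any listed coding gene with the same symbol root was accepted, which is a wider definition. The count inside another gene, 84, was 24 on the same strand, 62 on the opposite strand and 69 with protein-coding hosts, each a narrower definition. The lower share inside genes, 56.0%, was 60.9% with absolute values of at least 2. Median identity, 95.6%, was 95.5% with no minimum aligned share and 95.7% at 80%. No paired analysis was possible because each gene has a single deposited value and none by library. Without library values, leaving out replicates and other normalizations, filters or pseudocounts were not run either. The limits set by sequencing depth could not be judged, since the depth is not known.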

Other observations

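The distance of members to other listed genes, other members among them, was only counted. Members that were nearest to each other each entered the counts. The pairs Gm13142 with Gm13160 and Gm15546 with Gm15547, both split between the tables, are examples. No such distances were taken for other genes, so the counts cannot be called few or many, and the directions were not tested. The median distance to the nearest one on the same chromosome was 470796 bp, and 26 of 186 members were within 100 kb of one, 9 listed in the same direction and 17 in the opposite one. Within 10 kb there were 3, all in the opposite direction. Beside the overlap of A930017M01Rik with Sybu, the Rpl10 copy Gm11688 at 1.97 lies 4438 bp from the small nucleolar RNA gene Snord17 at -4.79, and the Hspa8 copy Gm8326 at 2.74 lies 8660 bp from the axonemal dynein gene Dnah7c at -2.54, in the authors' deposited tables. The X chromosome held 16 members (8.60%), beside 9.28% of unlisted processed pseudogenes.

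Of the 4 members with a named parent and a listed coding gene of the same symbol root, Krt8-ps at -1.67 stood beside the keratin genes Krt1 at 3.34, Krt15 at -2.78, Krt12 at -1.83, Krt79 at 1.86 and Krt72 at 1.73 in the authors' deposited tables. Ppp1r2-ps4 at -1.66 stood beside Ppp1r32 at -1.68 and Ppp1r3g at -1.83, and Eif5al3-ps at 1.53 beside Eif4e1b at -2.68, in the authors' deposited tables.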
